A study of Caenorhabditis elegans with 20 samples.

Results

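Worms keep many maternal messenger RNAs silent, or release them, through RNA-binding proteins of the germline and the oocyte, and 46 genes of these families and of the egg were followed here among 16378 genes measured on spotted DNA microarrays. They were chosen by name as all genes whose symbols start with puf, fbf, pgl, glh, oma, mex, pos, pie, gld, cpb, cey, egg, daz, fog, nos or spn, a hyphen and a digit. Each gene is represented by its brightest array feature (a spotted probe) over all samples. The 46 genes had 55 features, and 7 of the genes had more than 1. Not every gene so named acts in the germline: EGG-6 is known from the excretory duct and PUF-9 from somatic tissues.

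In the Caenorhabditis elegans germline, transcription falls silent as oocytes mature, and proteins made from stored messages are controlled by repressors bound to the 3′ end of the mRNA, by cytoplasmic poly(A) polymerases that wake those messages, and by P granules, the condensates in which many of them gather. PUF and Nanos proteins, GLD-1, CPEB proteins, DAZ-1, SPN-4 and the CCCH zinc-finger proteins bind mRNA directly, whereas PGL and GLH proteins build P granules. EGG-1 to EGG-5 act at fertilization and at the transition from egg to embryo. AIN-1 and AIN-2 are the worm's GW182-family proteins, which join microRNA-bound Argonautes to the machinery that represses mRNAs.

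The study asked which mRNAs travel with AIN-1 and AIN-2, and it compared RNA of immunoprecipitates (IPs) with total lysate RNA in 20 samples of mixed-stage worms. Wild-type N2 worms gave the AIN-1 IP (n = 3), a control IP with preimmune serum (n = 3) and total RNA (n = 2). Worms with AIN-2::GFP, a single copy integrated line named A, gave the AIN-2::GFP IP (n = 3) and total RNA (n = 3). An injection line with GFP alone under the ain-2 promoter gave the control GFP IP (n = 3) and total RNA (n = 3). Each transgene was thus studied in a single line, and no genotype beyond these names is given. Replicates are described as biologically independent, and precision is limited by how few arrays there are.

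Levels are log2 values after quantile normalization, with 0 close to the mean of all spots of a sample and a floor at -5.74 below which no order is known. Values are listed in the order of replicates 1, 2 and 3. N2 total RNA is shortened to N2 RNA in differences. Differences are log2 differences ± standard error from a limma model over all 20 samples, and a gene is called when its Benjamini-Hochberg adjusted p over all 12222 features tested was under 0.05. Of the 46 genes, 44 passed the filter on dim features. The CPEB gene cpb-2 and the PUF gene puf-4 did not, and no sample showed either of them above the background limit. That limit was set in each sample at the median plus 2 scaled median absolute deviations of 1327 chemoreceptor features. 16 of the 46 genes lay above it in all 20 samples and 38 in at least 10.

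The control IPs stood apart. Mean signal in scanner units was inferred from the deposited values, not measured. It was taken as the smallest whole number that turns all values of a sample into whole numbers when multiplied. So inferred, it spanned 9 to 47 with preimmune serum and 12 to 370 for the GFP IP. In the AIN-1 IP it was 629 to 907, in the AIN-2::GFP IP 329 to 729 and in total RNA 241 to 800. Preimmune IP replicate 1 was the dimmest sample, with 17 of the 46 genes above the limit, against 33 to 44 in the other 19 samples. GFP IP replicate 1, with an inferred mean signal of 370, was unlike replicates 2 and 3, at 46 and 12. Spearman correlations between replicates over gene features were 0.274 to 0.648 with preimmune serum and 0.567 to 0.723 for the GFP IP, but 0.875 to 0.935 in the 5 other groups. Several results that rest on these samples are given with and without them. Direct comparisons of the AIN-2::GFP IP with the GFP IP are given with all samples only. A further covariate, called the sample split here, separates the AIN-1 and preimmune IPs and the first replicates of both other IP groups from the remaining samples. No label names this split: it came from an earlier look at these values and is not a known batch. All AIN-1 and preimmune IP samples lie on one side of it and all N2 samples on the other. In comparisons of these IPs with N2, only the first replicates of the other IP groups tell the split from the comparison. A call lost under the split there cannot show whether the call is sound. Dye pairs are same-numbered samples of opposite dye, and the labels do not say that they share an array.

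**Figure D1:**
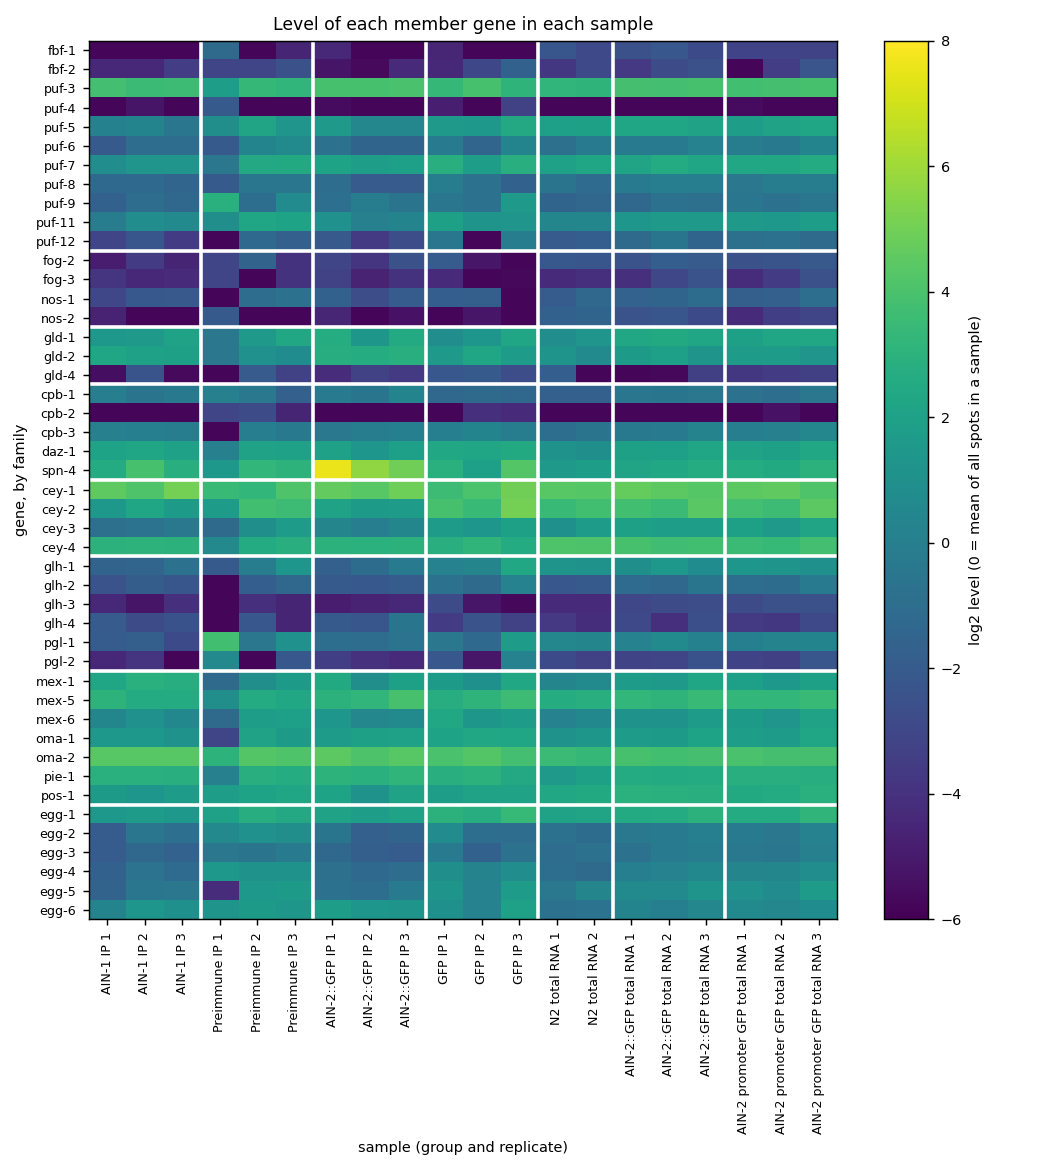
Log2 level (colour, 0 close to the mean of all spots of a sample) of the 46 genes (rows, by family) in the 20 samples (columns, by group and replicate). The bright cells of spn-4 in the AIN-2::GFP IP run from 4.97 to 7.59, and preimmune IP replicate 1 differs from its 2 replicates in many rows.

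Few of the germline and egg genes were called, and the clearest change was a rise. In the AIN-2::GFP IP against total RNA of the same line, spn-4 rose 12.7-fold and cey-2 fell 4.37-fold, as 2 of 44 tested genes against 5.51% of all features called (2.79% higher and 2.72% lower). For AIN-1 against N2 total RNA, egg-6 rose and fbf-1, nos-2 and puf-5 fell, which is 4 of 44 against 11.8% of all features (6.1% higher and 5.65% lower). Relative to the preimmune IP, AIN-1 was higher for gld-2 and mex-1 and lower for egg-2, egg-4, pgl-1 and puf-5, or 6 of 44 against 11.8% (9.44% higher and 2.36% lower). With the replicate number as a fixed block 5 members were called (2 higher and 3 lower), and with same-numbered samples of opposite dye as a random block 9 were (2 higher and 7 lower), while all features called rose from 1154 higher and 289 lower to 1954 and 649. Counted over both directions, these shares are near the background of all features, and nothing particular to the members is read from them. No member was called in AIN-1 IP minus N2 RNA once the sample split entered the model. All features called then were 157 higher and 411 lower, in place of 746 and 691. The split nearly coincides with this comparison, so the loss decides nothing about the members. The median difference of the 44 genes was -0.23 in the first AIN-1 comparison, beside 0.11 over all features (-0.97 beside -1.02 under mean scaling), and -0.79 in the AIN-2::GFP IP, beside 0.00. Beside these values, markers of other tissues moved too, not all the same way. Of 131 cuticle genes tested, AIN-1 IP minus N2 RNA had 49 lower and 1 higher (median -1.82), and AIN-2::GFP IP minus total RNA had 15 lower and 1 higher (median -1.25). For 42 sperm genes the first comparison had 1 lower and 4 higher (median 0.29). Its medians were -1.41 for 12 intestinal, -1.48 for 9 muscle and -0.18 for 5 neuronal genes. The second comparison gave -0.26 for sperm, -0.78, -0.44 and 0.08. Their part in the members' values was not tested. For AIN-1, no gene of the 46 was called above both N2 total RNA and the preimmune IP, beside 2.59% of all features. For AIN-2 the pair was a rise over total RNA and a higher enrichment than that of the GFP IP over its own total RNA. No member met this pair, beside 0.00818% of all features, although spn-4 was called higher directly against the GFP IP.

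**Figure D2:**
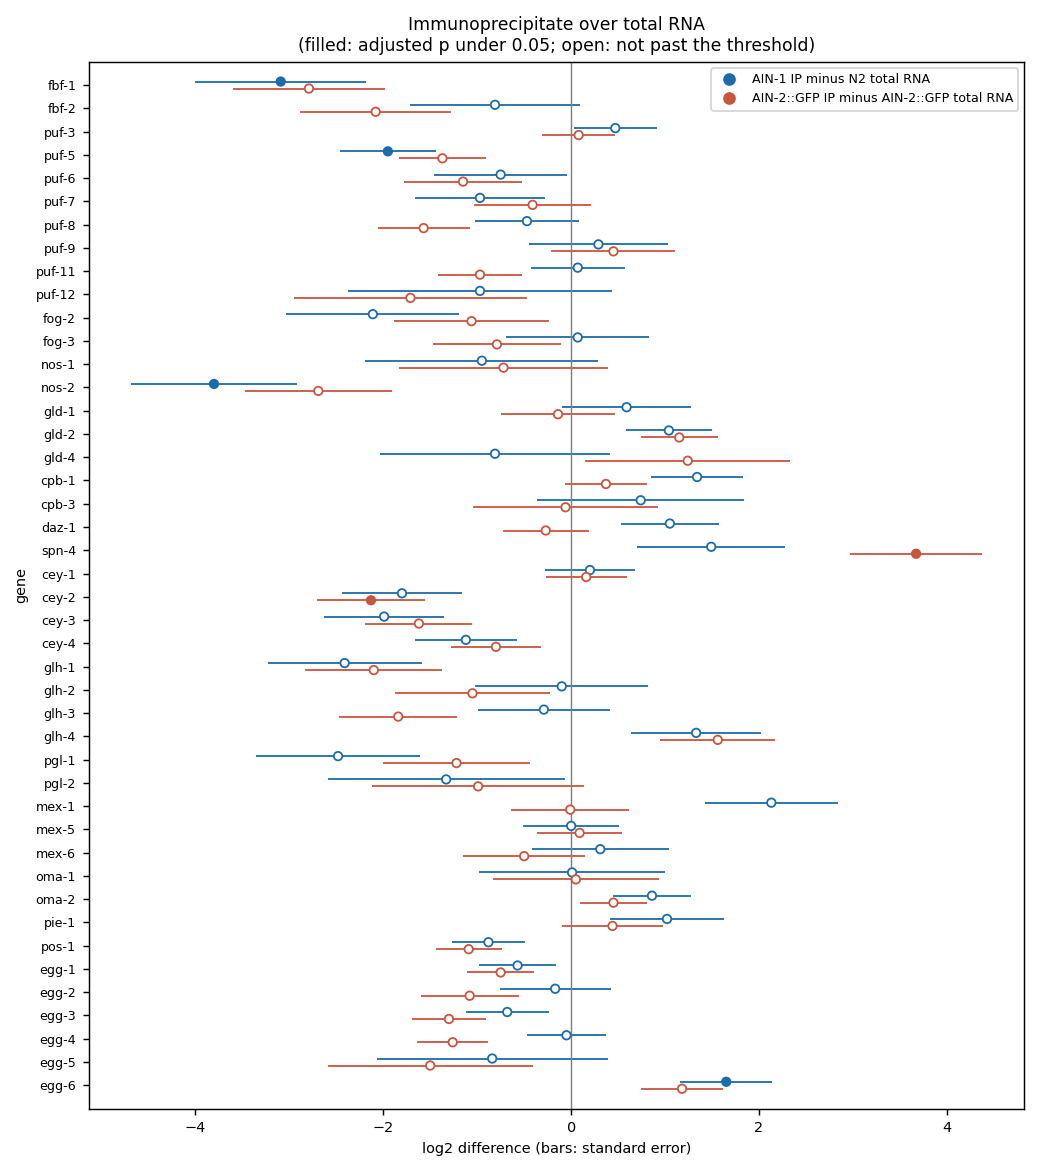
Log2 difference with its standard error for the 44 tested genes in AIN-1 IP minus N2 RNA (blue) and in the AIN-2::GFP IP over total RNA of its line (red), with filled points for adjusted p under 0.05. The point of spn-4 at 3.67 lies apart to the right, and fbf-1 and nos-2 lie farthest to the left in both comparisons.

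SPN-4 is an RNA-recognition-motif protein supplied by the mother that controls translation of maternal mRNAs in the early embryo. The spn-4 level was 2.62, 3.90 and 2.80 in the AIN-1 IP and 1.47, 3.25 and 3.06 in the preimmune IP. For spn-4, the AIN-2::GFP IP read 7.59, 5.65 and 4.97 and the GFP IP 2.91, 1.92 and 4.24. Total RNA gave spn-4 levels of 1.53 and 1.78 in N2, 2.16, 2.36 and 2.69 in AIN-2::GFP worms and 2.66, 2.48 and 3.01 in promoter GFP worms. Every AIN-2::GFP IP sample lay above each of the 17 other samples, and N2 total RNA was low, within the range of the preimmune IP. Over total RNA of its line the rise was 3.67 ± 0.70 (12.7-fold, adjusted p = 0.00695), and it was called without any 1 of the 6 samples compared and under all 7 other settings tried. Directly against the GFP IP it was 3.13 ± 0.72 (8.77-fold, adjusted p = 0.0227). The GFP IP itself differed from its total RNA by 0.30 ± 0.70 (adjusted p = 0.929). The difference of both enrichments was 3.36 ± 0.99 and did not pass over all features in the fit without a block (adjusted p = 0.262). By that fit, which leaves the pairing of samples out, spn-4 is not in the AIN-2 set defined above. With dye pairs as a random block, features called in this difference rose from 1 higher and 2 lower to 70 and 52. Whether spn-4 was among them is not given here. In the AIN-1 IP the value over N2 total RNA was 1.49 ± 0.79 (adjusted p = 0.248), and the enrichment in AIN-1 minus that in AIN-2::GFP was -2.17 ± 1.06 (adjusted p = 0.903).

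The other mRNA-binding proteins of this group are the CPEB proteins, relatives of the cytoplasmic polyadenylation factors known from frog oocytes, and DAZ-1, which oocyte meiosis requires. None of cpb-1, cpb-3 and daz-1 was called in any of the 9 comparisons. Over N2 total RNA the AIN-1 IP gave 1.34 ± 0.49 for cpb-1 (adjusted p = 0.0906), 0.74 ± 1.10 for cpb-3 (adjusted p = 0.736) and 1.05 ± 0.52 for daz-1 (adjusted p = 0.208). Over AIN-2::GFP total RNA the corresponding AIN-2::GFP IP values were 0.37, -0.06 and -0.27.

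PUF proteins repress mRNAs that carry a short element in the 3′ UTR. FBF-1 and FBF-2 keep germline stem cells from entering meiosis, PUF-5 works in growing oocytes with its relatives PUF-6 and PUF-7, PUF-8 acts in the germline, and PUF-3 and PUF-11 are maternal proteins of oocytes and embryos. Of the 10 PUF genes tested, AIN-1 IP minus N2 RNA had 0 higher and 2 lower, beside 5.65% of all features lower. The median was -0.78 beside 0.11 over all features, and -1.50 beside -1.02 under mean scaling. In the AIN-2::GFP IP over its total RNA none was called by its brightest feature, at a median of -1.26 beside 0.00 over all features. Below 0 were 8 of the 10, beside 50.2% of all features.

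The puf-5 level was 0.15, 0.32 and -0.52 in the AIN-1 IP and 0.94, 2.20 and 1.28 in the preimmune IP. Levels of puf-5 were 1.52, 0.48 and 0.47 in the AIN-2::GFP IP and 1.51, 1.45 and 2.44 in the GFP IP. Total RNA gave puf-5 levels of 1.88 and 1.95 in N2, 2.24, 2.26 and 2.07 in AIN-2::GFP worms and 1.82, 2.06 and 2.26 in promoter GFP worms. All 3 AIN-1 IP samples lay below each of the 17 other samples, and the AIN-2::GFP IP lay below its own total RNA without overlap. The AIN-1 IP fell below N2 total RNA by 1.95 ± 0.51 on the log2 scale (3.85-fold, adjusted p = 0.0236) and below the preimmune IP by 1.51 ± 0.47 (2.85-fold, adjusted p = 0.0476). The AIN-2::GFP IP value of -1.37 ± 0.46 did not pass (adjusted p = 0.0984). Without any 1 of the 5 samples of the first comparison the adjusted p was 0.0536 to 0.18, and it was 0.0825 once the sample split was a covariate. The second call was lost with replicate numbers as a block (adjusted p = 0.0599), under mean scaling (0.271), and without AIN-1 IP replicate 1 (0.1), 2 (0.0931) or 3 (0.152) or preimmune IP replicate 2 (0.143).

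The puf-6 level was -2.04, -0.98 and -1.02 in the AIN-1 IP and -2.01, 0.33 and 0.62 in the preimmune IP. For puf-6, the AIN-2::GFP IP read -0.79, -1.50 and -1.47 and the GFP IP -0.15, -1.41 and 0.30. Total RNA gave puf-6 levels of -0.81 and -0.31 in N2, -0.28, -0.22 and 0.20 in AIN-2::GFP worms and -0.06, -0.35 and 0.31 in promoter GFP worms. For puf-6 the AIN-1 IP lay below all 8 total RNA samples, but the control IPs overlapped it. The puf-7 level was 0.87, 1.31 and 1.30 in the AIN-1 IP and -0.46, 2.44 and 2.52 in the preimmune IP. Levels of puf-7 were 2.11, 1.77 and 1.92 in the AIN-2::GFP IP and 2.81, 1.86 and 2.78 in the GFP IP. Total RNA gave puf-7 levels of 1.99 and 2.27 in N2, 2.17, 2.62 and 2.26 in AIN-2::GFP worms and 2.39, 2.39 and 2.63 in promoter GFP worms. The AIN-1 IP again lay below every total RNA sample of puf-7, and preimmune IP replicate 1 was lower still. Neither gene was called: the AIN-1 IP differed from N2 total RNA by -0.75 ± 0.71 for puf-6 (adjusted p = 0.554) and by -0.97 ± 0.69 for puf-7 (adjusted p = 0.417). Without preimmune IP replicate 1, both were called lower with AIN-1 than with preimmune serum, at -1.75 ± 0.46 (adjusted p = 0.0214) and -1.28 ± 0.31 (adjusted p = 0.0162). Over all features, that fit called 1197 higher and 532 lower, in place of 1154 and 289. Nothing particular to these genes is read from the new calls.

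The fbf-1 level was -5.74, -5.74 and -5.74 in the AIN-1 IP and -1.17, -5.74 and -4.53 in the preimmune IP. For fbf-1, the AIN-2::GFP IP read -4.43, -5.74 and -5.74 and the GFP IP -4.51, -5.74 and -5.74. Total RNA gave fbf-1 levels of -2.26 and -2.89 in N2, -2.52, -2.20 and -2.83 in AIN-2::GFP worms and -3.17, -3.16 and -3.11 in promoter GFP worms. All 8 total RNA samples stood at -3.17 or higher, and no IP sample was above the background limit. The AIN-1 IP fell below N2 total RNA by 3.09 ± 0.91 on the log2 scale (adjusted p = 0.0379), which is at least 1.99-fold lower. Bounds of this kind set the brighter group's mean against the dimmer group's mean of, in each sample, the background limit or the signal of the feature itself, whichever was higher. The call did not hold without any 1 of the 5 samples (adjusted p 0.0755 to 0.331), with a floor at the 20th percentile (0.0757), with dye pairs as a random block (0.0661) and with the sample split (0.0520). The 2 other features of fbf-1 gave -0.09 (adjusted p = 0.984) and 1.01 (adjusted p = 0.567). The fbf-2 level was -4.44, -4.42 and -3.44 in the AIN-1 IP and -3.05, -3.08 and -2.51 in the preimmune IP. Levels of fbf-2 were -5.20, -5.66 and -4.27 in the AIN-2::GFP IP and -4.42, -2.99 and -1.66 in the GFP IP. Total RNA gave fbf-2 levels of -3.71 and -2.89 in N2, -3.66, -2.73 and -2.51 in AIN-2::GFP worms and -5.74, -3.44 and -2.29 in promoter GFP worms. For fbf-2 the AIN-1 IP overlapped N2 total RNA, and the AIN-2::GFP IP lay below its own total RNA without overlap. None of its comparisons was called, with -0.81 ± 0.90 for the AIN-1 IP minus N2 RNA (adjusted p = 0.627). FBF-1 and FBF-2 are nearly identical proteins, and how far a feature of one gene binds RNA of the other was not tested.

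The puf-3 level was 3.84, 3.52 and 3.61 in the AIN-1 IP and 1.87, 3.31 and 3.19 in the preimmune IP. For puf-3, the AIN-2::GFP IP read 3.92, 3.94 and 3.99 and the GFP IP 3.35, 3.94 and 3.08. Total RNA gave puf-3 levels of 3.21 and 3.08 in N2, 3.86, 3.81 and 3.95 in AIN-2::GFP worms and 3.77, 3.86 and 3.94 in promoter GFP worms. Most samples were close together for this feature, with preimmune IP replicate 1 as the lowest. The puf-11 level was -0.09, 0.87 and 0.64 in the AIN-1 IP and 0.94, 2.22 and 2.14 in the preimmune IP. Levels of puf-11 were 1.08, 0.12 and 0.32 in the AIN-2::GFP IP and 1.95, 1.23 and 1.30 in the GFP IP. Total RNA gave puf-11 levels of 0.40 and 0.40 in N2, 1.34, 1.53 and 1.54 in AIN-2::GFP worms and 1.55, 1.47 and 1.79 in promoter GFP worms. The brightest feature of puf-11 was highest in preimmune IP replicates 2 and 3 and in GFP IP replicate 1. AIN-1 IP minus N2 RNA was 0.47 ± 0.44 for puf-3 (adjusted p = 0.555) and 0.07 ± 0.50 for puf-11 (adjusted p = 0.955).

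Further features of these genes behaved otherwise. The second feature of puf-3 read -4.08, -5.60 and -4.55 in the AIN-1 IP and 0.83 and 1.33 in N2 total RNA. It read -4.24, -3.45 and -5.74 with preimmune serum, -2.16, -4.06 and -2.77 in the AIN-2::GFP IP, and -4.28, -4.04 and -5.74 in the GFP IP. All 12 IP samples lay below all 8 total RNA samples, which ran from -1.90 to 1.33. The fall below N2 total RNA was called in the AIN-1 IP, at -5.93 (adjusted p = 1.92e-04), and in the preimmune IP, at -5.45 (adjusted p = 2.72e-04), which share the N2 samples. The second feature of puf-11 gave -4.37 (adjusted p = 8.15e-04) and -4.59 (adjusted p = 6.23e-04) in these comparisons, and the third gave -4.27 (adjusted p = 0.00559) and -1.94 (adjusted p = 0.141). In the AIN-2::GFP IP over its total RNA the second feature of puf-3 was called lower, at -2.6 (adjusted p = 0.022). The GFP IP over its total RNA gave -3.07 for that feature (adjusted p = 0.109). The features of a gene therefore disagree, the preimmune IP shows the fall of both second features as well, and which of them follows the mature mRNA was not tested.

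**Figure D3:**
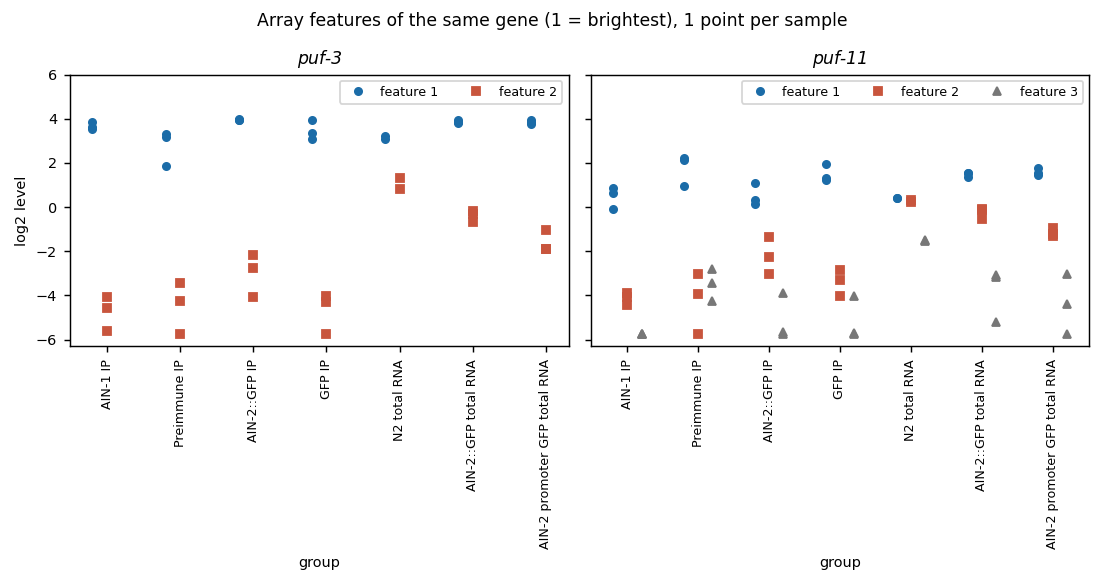
Log2 level of each feature of puf-3 (left) and puf-11 (right) by group, with 1 point per sample and the brightest feature in blue. The brightest feature of puf-3 stays between 1.87 and 3.99, whereas its second feature lies lower in each IP sample than in every total RNA sample.

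Further germline families act beside the PUF proteins: Nanos proteins are PUF partners that protect primordial germ cells, and FOG-2 and FOG-3 promote sperm fate, FOG-2 as an F-box partner of GLD-1 and FOG-3 as a Tob protein. The nos-2 level was -4.64, -5.74 and -5.74 in the AIN-1 IP and -2.01, -5.74 and -5.74 in the preimmune IP. For nos-2, the AIN-2::GFP IP read -4.50, -5.74 and -5.31 and the GFP IP -5.74, -5.15 and -5.74. Total RNA gave nos-2 levels of -1.64 and -1.51 in N2, -2.43, -2.23 and -2.83 in AIN-2::GFP worms and -4.28, -3.38 and -3.10 in promoter GFP worms. Total RNA of N2 was highest, and every AIN-1 IP sample lay below all 8 total RNA samples. The AIN-1 IP fell by 3.80 ± 0.88 on the log2 scale (at least 3.98-fold, adjusted p = 0.0126). In the preimmune IP the fall against the same N2 samples was 2.92 ± 0.88 (adjusted p = 0.0402), with no sample above the limit and no fold that can be bounded. The AIN-1 call needed replicate 2 of the AIN-1 IP (adjusted p = 0.066 without it) and both N2 samples (0.111 and 0.114 without 1 of them), and its adjusted p was 0.0691 with the sample split as a covariate. The preimmune call did not hold without preimmune IP replicate 2 (0.102) or 3 (0.0794), without either N2 sample (0.165 and 0.282), under mean scaling (0.0534), under cyclic loess (0.0879), with replicate numbers as a block (0.0519), with dye pairs (0.0650) and with the sample split (0.116).

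The nos-1 level was -3.01, -2.16 and -2.10 in the AIN-1 IP and -5.74, -1.02 and -0.75 in the preimmune IP. Levels of nos-1 were -1.66, -2.71 and -1.92 in the AIN-2::GFP IP and -1.84, -1.77 and -5.74 in the GFP IP. Total RNA gave nos-1 levels of -1.90 and -1.25 in N2, -1.62, -1.49 and -1.03 in AIN-2::GFP worms and -1.75, -1.70 and -0.93 in promoter GFP worms. The AIN-1 IP lay below all 8 total RNA samples of nos-1, the AIN-2::GFP IP lay just below its own total RNA, and preimmune IP replicate 1 and GFP IP replicate 3 were at the floor. No comparison called nos-1, fog-2 or fog-3. For fog-2 the AIN-1 IP minus N2 RNA was -2.11 ± 0.92 (adjusted p = 0.156). Without GFP IP replicate 1, fog-2 was called lower in the GFP IP than in its total RNA, at -3.16 ± 0.63 (adjusted p = 0.0143). The fog-2 values left in the GFP IP were -5.15 and -5.74, at or near the floor. Over all features, that fit called 113 higher and 455 lower.

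GLD-1 is a STAR-family repressor of maternal mRNAs, and GLD-2 and GLD-4 are cytoplasmic poly(A) polymerases that lengthen the tails of germline mRNAs. The gld-2 level was 2.22, 1.99 and 1.95 in the AIN-1 IP and -0.46, 1.06 and 0.79 in the preimmune IP. For gld-2, the AIN-2::GFP IP read 2.73, 2.67 and 2.85 and the GFP IP 1.56, 2.30 and 1.74. Total RNA gave gld-2 levels of 1.26 and 0.67 in N2, 1.64, 1.88 and 1.27 in AIN-2::GFP worms and 1.74, 1.71 and 1.32 in promoter GFP worms. The AIN-2::GFP IP was above all other samples, and the AIN-1 IP was above the preimmune IP and above every total RNA sample. Against the preimmune IP the AIN-1 IP was higher by 1.49 ± 0.42 (2.82-fold, adjusted p = 0.032), and without preimmune IP replicate 1 the value was 1.10 ± 0.32 (adjusted p = 0.0339). This call did not hold without AIN-1 IP replicate 1 (0.0944), 2 (0.143) or 3 (0.0617) and under cyclic loess (0.136). Over total RNA neither IP passed, with 1.04 ± 0.46 in AIN-1 (adjusted p = 0.163) and 1.15 ± 0.41 in AIN-2::GFP (adjusted p = 0.123). No comparison called gld-1 or gld-4. AIN-1 IP minus N2 RNA was 0.59 ± 0.69 for gld-1 (adjusted p = 0.647) and -0.81 ± 1.22 for gld-4 (adjusted p = 0.74).

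CEY proteins are Y-box, cold-shock-domain proteins that coat mRNA, and CEY-2 and CEY-3 are known as germline proteins. The cey-2 level was 1.44, 2.25 and 1.63 in the AIN-1 IP and 1.68, 3.75 and 3.61 in the preimmune IP. Levels of cey-2 were 2.04, 1.63 and 1.68 in the AIN-2::GFP IP and 3.93, 3.50 and 5.09 in the GFP IP. Total RNA gave cey-2 levels of 3.42 and 3.75 in N2, 3.77, 3.55 and 4.42 in AIN-2::GFP worms and 3.84, 3.62 and 4.46 in promoter GFP worms. All 6 samples of the AIN-1 and AIN-2::GFP IPs, and preimmune IP replicate 1, were at 2.25 or lower, and the 13 other samples were at 3.42 or higher. The AIN-2::GFP IP fell below its total RNA by 2.13 ± 0.57 on the log2 scale (4.37-fold, adjusted p = 0.039) and below the GFP IP by 2.36 ± 0.58 (5.15-fold, adjusted p = 0.0318). For the AIN-1 IP minus N2 RNA the value was -1.80 ± 0.64 (adjusted p = 0.0803). Without any 1 of the 6 AIN-2::GFP samples the first call was lost (adjusted p 0.0793 to 0.171), as it was under mean scaling (0.111) and once the sample split was a covariate (0.0550). The cey-3 level was -0.81, -0.66 and -0.40 in the AIN-1 IP and -1.17, 0.96 and 1.76 in the preimmune IP. For cey-3, the AIN-2::GFP IP read 0.37, -0.01 and 0.43 and the GFP IP 1.72, 1.36 and 1.94. Total RNA gave cey-3 levels of 1.04 and 1.70 in N2, 1.98, 1.86 and 1.81 in AIN-2::GFP worms and 1.95, 1.58 and 2.20 in promoter GFP worms. As for cey-2, the AIN-1 and AIN-2::GFP IPs were below all 8 total RNA samples. Values for cey-3 were -1.99 ± 0.64 in the AIN-1 IP (adjusted p = 0.0564) and -1.62 ± 0.57 in the AIN-2::GFP IP (adjusted p = 0.116), each over total RNA. The cey-4 level was 3.00, 3.04 and 3.00 in the AIN-1 IP and 0.57, 2.63 and 2.82 in the preimmune IP. Levels of cey-4 were 3.00, 2.96 and 2.98 in the AIN-2::GFP IP and 2.84, 3.16 and 2.63 in the GFP IP. Total RNA gave cey-4 levels of 4.12 and 4.09 in N2, 3.91, 3.69 and 3.74 in AIN-2::GFP worms and 3.55, 3.36 and 3.82 in promoter GFP worms. All 12 IP samples lay below all 8 total RNA samples. Only the preimmune IP was called, at -2.07 ± 0.54 against N2 total RNA (4.18-fold lower, adjusted p = 0.0235), or -1.38 ± 0.30 without its replicate 1 (adjusted p = 0.00962), and the call did not hold without N2 replicate 1 (0.115) or 2 (0.231) and with the sample split (0.110). In that comparison 4 of the 44 genes were called, against 13.1% of all features (3.89% higher and 9.17% lower). For cey-1 no comparison was called and the AIN-1 IP minus N2 RNA was 0.20 ± 0.48 (adjusted p = 0.851).

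PGL-1 and PGL-2 are scaffold proteins of P granules, and GLH proteins are DEAD-box helicases related to fly Vasa that sit in the same granules. The pgl-1 level was -1.95, -1.78 and -2.88 in the AIN-1 IP and 3.77, -0.46 and 1.07 in the preimmune IP. For pgl-1, the AIN-2::GFP IP read -0.93, -1.0 and -0.69 and the GFP IP -0.46, -1.23 and 1.70. Total RNA gave pgl-1 levels of 0.47 and 0.35 in N2, 0.20, 0.68 and 0.16 in AIN-2::GFP worms and 0.02, 0.27 and 0.34 in promoter GFP worms. The AIN-1 IP was below each of the 17 other samples, and preimmune IP replicate 1 was the highest of all. The AIN-1 IP was lower than the preimmune IP, at -3.39 ± 0.79 (10.5-fold, adjusted p = 0.0129), and without preimmune IP replicate 1 the value was -2.41 ± 0.62 (adjusted p = 0.0201). The call did not hold without AIN-1 IP replicate 2 (adjusted p = 0.0682) and held under the 7 other settings. Against N2 total RNA the value was -2.48 ± 0.87 (adjusted p = 0.0782). The pgl-2 level was -4.44, -3.85 and -5.74 in the AIN-1 IP and 0.57, -5.74 and -2.22 in the preimmune IP. Levels of pgl-2 were -3.42, -3.99 and -4.27 in the AIN-2::GFP IP and -2.20, -5.15 and 0.20 in the GFP IP. Total RNA gave pgl-2 levels of -2.87 and -3.31 in N2, -3.15, -3.05 and -2.49 in AIN-2::GFP worms and -3.11, -3.33 and -2.24 in promoter GFP worms. Preimmune IP replicate 1 and GFP IP replicate 3 stood out as high for pgl-2, which no comparison called.

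The glh-1 level was -1.56, -1.42 and -0.72 in the AIN-1 IP and -2.01, -0.13 and 1.37 in the preimmune IP. For glh-1, the AIN-2::GFP IP read -1.70, -1.06 and -0.30 and the GFP IP 0.18, 0.36 and 2.37. Total RNA gave glh-1 levels of 1.26 and 1.13 in N2, 0.98, 1.44 and 0.82 in AIN-2::GFP worms and 1.38, 1.22 and 1.03 in promoter GFP worms. The 6 samples of the AIN-1 and AIN-2::GFP IPs lay below all 8 total RNA samples of glh-1, while the preimmune IP overlapped both. The GFP IP lay above the 6 AIN IP samples. The glh-2 level was -2.43, -1.87 and -2.28 in the AIN-1 IP and -5.74, -1.82 and -1.30 in the preimmune IP. Levels of glh-2 were -2.02, -2.15 and -1.95 in the AIN-2::GFP IP and -0.71, -1.15 and 0.20 in the GFP IP. Total RNA gave glh-2 levels of -2.18 and -2.04 in N2, -1.12, -1.28 and -0.58 in AIN-2::GFP worms and -0.93, -1.06 and -0.28 in promoter GFP worms. For glh-2 the AIN-1 IP overlapped N2 total RNA. Against transgenic total RNA glh-1 was called lower in the AIN-1 IP. Otherwise neither was called, with -2.41 ± 0.82 for glh-1 (adjusted p = 0.0706) and -0.10 ± 0.92 for glh-2 (adjusted p = 0.969) in AIN-1 IP minus N2 RNA. For glh-4, which also was not called, that value was 1.33 ± 0.69 (adjusted p = 0.235), while its second feature gave -1.42 (adjusted p = 0.302).

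**Figure D4:**
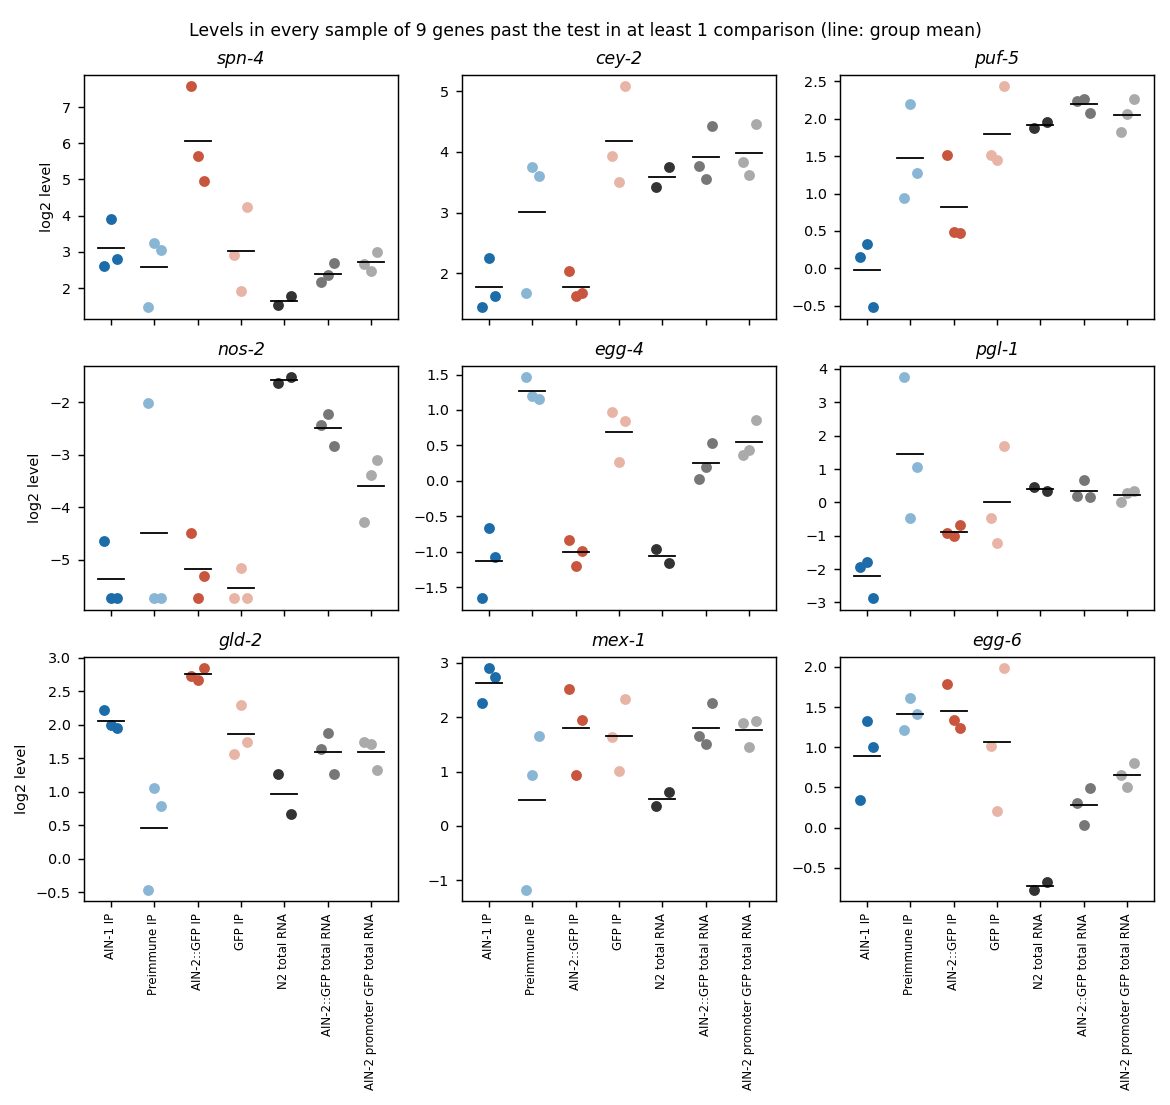
Log2 level in every sample of 9 genes called in at least 1 comparison, by group, with a line at each group mean and a separate axis for each gene. The AIN-2::GFP IP points of spn-4 lie above all others, and the egg-4 points fall into samples above 0 and samples below 0.

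CCCH zinc-finger proteins act from oocyte maturation to the first divisions: OMA-1 and OMA-2 are redundant in maturing oocytes, MEX-1, MEX-5, MEX-6 and POS-1 pattern the early embryo, and PIE-1 keeps transcription off in the germline blastomeres. Of these 7 genes, mex-1 alone was called when the references were N2 total RNA, the control IPs or total RNA of the same line. Against transgenic total RNA, pos-1 was called lower in the AIN-1 IP. The mex-1 level was 2.26, 2.91 and 2.73 in the AIN-1 IP and -1.17, 0.93 and 1.65 in the preimmune IP. For mex-1, the AIN-2::GFP IP read 2.51, 0.94 and 1.95 and the GFP IP 1.63, 1.01 and 2.33. Total RNA gave mex-1 levels of 0.36 and 0.63 in N2, 1.66, 1.50 and 2.27 in AIN-2::GFP worms and 1.90, 1.45 and 1.93 in promoter GFP worms. The AIN-1 IP was above the preimmune IP and N2 total RNA, and its lowest sample overlapped the highest of AIN-2::GFP total RNA. The AIN-1 IP exceeded the preimmune IP by 2.14 ± 0.65 (4.41-fold, adjusted p = 0.0432), and its value over N2 total RNA was 2.13 ± 0.71 (adjusted p = 0.0652). The call did not hold without AIN-1 IP replicate 1 (0.0791), 2 (0.181) or 3 (0.101), without preimmune IP replicate 1 (a difference of 1.36, adjusted p = 0.0809) and under cyclic loess (0.0641). In the AIN-2::GFP IP the value over total RNA was -0.01 ± 0.63 (adjusted p = 0.998).

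The mex-5 level was 3.07, 2.60 and 2.59 in the AIN-1 IP and 0.94, 2.59 and 2.42 in the preimmune IP. Levels of mex-5 were 3.01, 3.22 and 3.90 in the AIN-2::GFP IP and 2.74, 3.13 and 3.62 in the GFP IP. Total RNA gave mex-5 levels of 2.65 and 2.79 in N2, 3.25, 3.12 and 3.49 in AIN-2::GFP worms and 3.25, 3.27 and 3.50 in promoter GFP worms. Apart from preimmune IP replicate 1, all samples of mex-5 were at 2.42 or higher. The mex-6 level was 0.44, 1.08 and 0.54 in the AIN-1 IP and -1.17, 1.80 and 1.90 in the preimmune IP. For mex-6, the AIN-2::GFP IP read 1.38, 0.50 and 0.71 and the GFP IP 2.39, 1.42 and 1.70. Total RNA gave mex-6 levels of 0.20 and 0.54 in N2, 1.19, 1.19 and 1.70 in AIN-2::GFP worms and 1.64, 1.30 and 2.05 in promoter GFP worms. The same preimmune sample was the lowest for mex-6. The oma-1 level was 1.47, 1.49 and 1.15 in the AIN-1 IP and -3.05, 2.08 and 1.63 in the preimmune IP. Levels of oma-1 were 1.73, 1.98 and 2.00 in the AIN-2::GFP IP and 2.14, 2.37 and 2.27 in the GFP IP. Total RNA gave oma-1 levels of 1.19 and 1.42 in N2, 1.76, 1.64 and 2.13 in AIN-2::GFP worms and 1.82, 1.69 and 2.24 in promoter GFP worms. It was again the lowest for oma-1, where the 19 other samples spanned 1.15 to 2.37. The oma-2 level was 4.34, 4.36 and 4.34 in the AIN-1 IP and 3.06, 4.24 and 4.12 in the preimmune IP. For oma-2, the AIN-2::GFP IP read 4.45, 4.08 and 4.35 and the GFP IP 3.97, 4.28 and 3.80. Total RNA gave oma-2 levels of 3.55 and 3.35 in N2, 3.90, 3.78 and 3.85 in AIN-2::GFP worms and 3.99, 3.88 and 3.85 in promoter GFP worms. For oma-2 the AIN-1 and AIN-2::GFP IPs lay above all 8 total RNA samples, as did replicates 2 and 3 of the preimmune IP and replicate 2 of the GFP IP. AIN-1 IP minus N2 RNA was 0.86 ± 0.41 for oma-2 (adjusted p = 0.192) and 1.02 ± 0.61 for pie-1 (adjusted p = 0.308). For pos-1 it was -0.88 ± 0.39 (adjusted p = 0.164).

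EGG-1 and EGG-2 are oocyte surface proteins with LDL-receptor repeats that fertilization needs, and EGG-3, EGG-4 and EGG-5 are pseudophosphatases that hold the kinase MBK-2 until the egg is activated. The egg-4 level was -1.66, -0.66 and -1.08 in the AIN-1 IP and 1.47, 1.20 and 1.15 in the preimmune IP. Levels of egg-4 were -0.83, -1.20 and -0.99 in the AIN-2::GFP IP and 0.97, 0.27 and 0.84 in the GFP IP. Total RNA gave egg-4 levels of -0.96 and -1.16 in N2, 0.02, 0.20 and 0.54 in AIN-2::GFP worms and 0.37, 0.43 and 0.86 in promoter GFP worms. The 8 samples of the AIN-1 IP, the AIN-2::GFP IP and N2 total RNA were below 0, and the 12 other samples were above 0. The preimmune IP held the 3 highest values. The AIN-1 IP fell below the preimmune IP by 2.35 ± 0.38 on the log2 scale (5.09-fold, adjusted p = 0.00153), also called without any 1 of the 6 samples and under all 7 other settings, but it differed from N2 total RNA by -0.05 ± 0.42 (adjusted p = 0.967). The preimmune IP exceeded N2 total RNA by 2.30 ± 0.42 (4.94-fold, adjusted p = 0.00325), a call lost without N2 replicate 2 (adjusted p = 0.0991) and under mean scaling (a difference of 1.04, adjusted p = 0.139). Directly against the GFP IP, the AIN-2::GFP IP was lower, at -1.65 ± 0.38 (3.14-fold, adjusted p = 0.024). The egg-5 level was -1.56, -0.49 and -0.46 in the AIN-1 IP and -4.24, 1.47 and 1.65 in the preimmune IP. For egg-5, the AIN-2::GFP IP read -0.71, -0.93 and -0.26 and the GFP IP 1.25, 0.21 and 1.66. Total RNA gave egg-5 levels of -0.40 and 0.37 in N2, 0.63, 0.69 and 1.27 in AIN-2::GFP worms and 1.09, 0.73 and 1.66 in promoter GFP worms. The close relative egg-5 followed a like order except for preimmune IP replicate 1, at -4.24, and was not called. Without that sample the AIN-1 IP was lower than the preimmune IP for egg-5 too, at -2.34 ± 0.46 (adjusted p = 0.00533). In that fit, features called lower rose from 289 to 532, and those called higher from 1154 to 1197.

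The egg-2 level was -1.92, -0.53 and -0.86 in the AIN-1 IP and 0.57, 1.07 and 0.93 in the preimmune IP. Levels of egg-2 were -0.55, -1.68 and -1.51 in the AIN-2::GFP IP and 0.73, -0.94 and -1.02 in the GFP IP. Total RNA gave egg-2 levels of -0.77 and -1.06 in N2, -0.38, -0.19 and 0.07 in AIN-2::GFP worms and -0.27, -0.45 and 0.18 in promoter GFP worms. The preimmune IP and GFP IP replicate 1 held the 4 highest values of egg-2, and the AIN-1 IP overlapped N2 total RNA. The AIN-1 IP was lower than the preimmune IP, at -1.92 ± 0.53 (3.79-fold, adjusted p = 0.0308), or -2.08 ± 0.55 without preimmune IP replicate 1 (adjusted p = 0.0229). This call did not hold without AIN-1 IP replicate 1 (0.124), 2 (0.0595) or 3 (0.0566), without preimmune IP replicate 2 (0.0626) and under mean scaling (0.0748). The egg-1 level was 1.48, 1.73 and 1.45 in the AIN-1 IP and 2.02, 2.73 and 2.47 in the preimmune IP. For egg-1, the AIN-2::GFP IP read 2.05, 1.82 and 2.07 and the GFP IP 2.97, 2.74 and 3.36. Total RNA gave egg-1 levels of 2.08 and 2.17 in N2, 2.56, 2.63 and 3.00 in AIN-2::GFP worms and 2.64, 2.63 and 3.17 in promoter GFP worms. The AIN-1 IP was below the 17 other samples of egg-1. It differed from N2 total RNA by -0.57 ± 0.41 (adjusted p = 0.412) and was not called. For egg-3 the AIN-2::GFP IP over its total RNA was -1.30 ± 0.39 (adjusted p = 0.0637).

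EGG-6 is a leucine-rich-repeat membrane protein known from the excretory duct and pore, so it stands apart from the other EGG proteins. The egg-6 level was 0.34, 1.33 and 1.0 in the AIN-1 IP and 1.22, 1.61 and 1.42 in the preimmune IP. Levels of egg-6 were 1.79, 1.34 and 1.24 in the AIN-2::GFP IP and 1.01, 0.21 and 1.99 in the GFP IP. Total RNA gave egg-6 levels of -0.77 and -0.68 in N2, 0.31, 0.03 and 0.49 in AIN-2::GFP worms and 0.65, 0.50 and 0.80 in promoter GFP worms. Total RNA of N2 held the lowest values, and all IP groups lay above it. The AIN-1 IP exceeded N2 total RNA by 1.65 ± 0.49 (3.14-fold, adjusted p = 0.0414) and the preimmune IP exceeded the same samples by 2.11 ± 0.49 (4.32-fold, adjusted p = 0.0133). AIN-1 and preimmune IP differed by -0.46 ± 0.45 (adjusted p = 0.53). The AIN-1 call ended when any 1 of its 5 samples was left out (adjusted p 0.0524 to 0.242), under mean scaling (0.183), under cyclic loess (0.1), with replicate numbers as a block (0.0614), with dye pairs (0.0706), with the sample split (0.232) and against transgenic total RNA (a difference of 0.46, adjusted p = 0.449). The preimmune call did not hold without N2 replicate 1 (0.0835) or 2 (0.174), under mean scaling (0.266) and with the sample split (0.0976).

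The total RNA groups were compared to see how far the reference matters. Between both transgenic lines no member was called, beside 0.00818% of all features, and 0 passed an unadjusted p of 0.05. N2 total RNA was below the mean of the transgenic lines for 36 of the 44 genes (81.8%), beside 57.3% of all features, at a median of -0.62 beside -0.16. Whether a strain holds fewer germline cells or less of an mRNA per cell cannot be told apart in RNA of whole worms. No member was called there, against 1.04% of all features, and 6 passed an unadjusted p of 0.05, all lower. The lowest values were those of the P granule helicase gene glh-3, at -1.57 ± 0.63 (adjusted p = 0.287), and of egg-4, at -1.46 ± 0.38 (adjusted p = 0.079). The highest was that of nos-2, at 1.46 ± 0.78 (adjusted p = 0.469). Under mean scaling and cyclic loess 34 and 36 of the 44 genes were below 0.

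Other cell types moved beside the germline genes in that comparison. The 42 tested sperm genes had a median of -1.52 with 3 lower and 0 higher, and the summed level of all 57 was 16.5 to 19.9 sample means in N2 against 60.6 to 170 in the transgenic lines. In the same comparison the medians were 1.10 for 9 muscle genes (1 higher), 0.56 for 12 intestinal genes, 0.50 for 131 cuticle genes (7 higher and 1 lower) and 0.11 for 5 neuronal genes (1 lower). The 9 tested markers of germline and oocyte had a median of -0.82, with 0 called. The part of these cell types in the members' values was not tested.

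**Figure D5:**
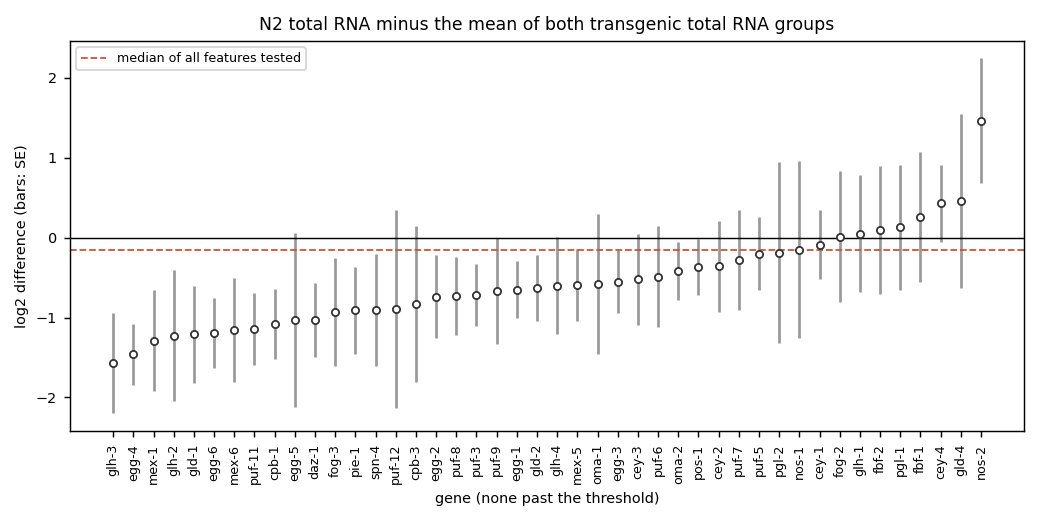
Log2 difference with its standard error between N2 total RNA and the mean of both transgenic total RNA groups for the 44 tested genes, ordered by value, with the median of all features as a dashed line. Of the 44 points, 36 lie below 0, and none passed the test.

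Against the transgenic total RNA instead of N2, the AIN-1 IP was lower for 12 of the 44 genes and higher for 0, beside 7.92% and 7.57% of all features. The 12 were cey-2, cey-3, egg-1, egg-3, egg-4, fbf-1, glh-1, glh-3, nos-2, pgl-1, pos-1 and puf-5. Examples are puf-5 at -2.15 ± 0.40 (4.42-fold lower, adjusted p = 0.00238), cey-3 at -2.51 ± 0.50 (5.70-fold, adjusted p = 0.00352) and pos-1 at -1.25 ± 0.31 (2.38-fold, adjusted p = 0.0121). Strain and IP differ together in this comparison and cannot be told apart. Markers of some other cell types were lower there too: 17 of 42 sperm genes (median -0.70), 48 of 131 cuticle genes (median -1.57) and 3 of 12 intestinal genes (median -1.17), beside a median of -0.06 over all features. Muscle genes had 1 higher and 0 lower of 9 (median -0.32), and neuronal genes 1 lower of 5 (median -0.26). Among germline lists, 4 of 9 germline and oocyte markers (median -1.32), 5 of 10 oocyte and eggshell genes (median -1.55) and 6 of 23 meiotic chromosome genes (median -1.35) were lower. Most of these markers also belong to the oocyte or meiotic list, so the counts overlap and are not separate results. The part of all these genes in the members' values was not tested. The enrichment in AIN-1 minus that in AIN-2::GFP called no member, beside 0.00818% of all features, and 2 passed an unadjusted p of 0.05.

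The control comparisons of the GFP line held no calls either. For the GFP IP over its total RNA 0 of the 44 genes were called, with 0.0245% of all features called (0.0164% lower) and 5 members at an unadjusted p under 0.05. Without GFP IP replicate 1, fog-2 and glh-3 were called lower, glh-3 at -2.86 ± 0.48 (adjusted p = 0.00612). In that fit 113 of 12222 features were called higher and 455 lower, so nothing particular to the members is read from these calls. The GFP IP values left lay at or near the floor, at -5.15 and -5.74 for fog-2 and -5.15 and -5.68 for glh-3. For the AIN-2::GFP enrichment minus the GFP enrichment 0 members were called, beside 0.0245% of all features (0.0164% lower), and 4 passed an unadjusted p of 0.05. Direct comparison of AIN-2::GFP IP with GFP IP called 3 of 44, namely spn-4, cey-2 and egg-4, beside 4.24% of all features. Over all features, 363 higher and 155 lower became 730 and 203 without GFP IP replicate 1. They became 207 and 162 without replicate 2, and 185 and 103 without replicate 3. Whether the 3 members were still called in these fits is not given here.

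The study defined its own sets by ranks. In each IP replicate a gene's ratio to mean total RNA of the strain is turned into a percentile rank, the ranks must lie above the mean rank of all genes by a one-sided test, the signal must exceed background, and the control IP must miss the mark. Computed from the deposited values with a threshold of 0.01, and with the chemoreceptor limit standing in for the study's empty spots, that rule took 11 of the 46 genes as AIN-1 associated, beside 13.3% of all gene features. They were cey-1, cpb-1, cpb-3, daz-1, gld-1, gld-2, mex-1, oma-2, pie-1, puf-3 and spn-4. It took 6 as AIN-2 associated, beside 10.2% of features: egg-6, gld-2, oma-2, pie-1, puf-3 and spn-4. Both shares are over all 17461 gene features, dim ones included, which cannot pass the rule. In AIN-1 IP samples 49.7% to 52.0% of gene features lay above the limit, but 36 to 37 of the 46 members did. In AIN-2::GFP IP samples these were 45.4% to 54.1% and 35 to 39. The bases are thus unlike, and nothing particular to the members is read from these shares. The rank of spn-4 was 98.6 to 99.1 in the AIN-2::GFP IP (mean 98.9), against a mean of 47.1 in the GFP IP. For mex-1 it was 94.9 to 97.7 in the AIN-1 IP, against a mean of 51 in the preimmune IP. The mean ranks of gld-2 were 89.1 in the AIN-1 IP and 90.5 in the AIN-2::GFP IP, against 35.1 and 45.3 in their controls. Ranks are taken within a sample, and 5 genes appear in both sets.

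Further genes of the same pathways, taken from lists of known germline factors, were read beside the members. Of 22 other germline RNA regulators, 0 were called in either IP over total RNA, with medians of 0.13 in AIN-1 and -0.06 in AIN-2::GFP, and 2 were higher in AIN-1 than in its preimmune control, a share near the 9.44% of all features. These were laf-1, a DEAD-box P granule helicase gene, at 2.27 ± 0.49 (adjusted p = 0.00905), and rnp-8, which encodes an RNA-binding partner of GLD-2, at 1.90 ± 0.46 (adjusted p = 0.0156). The preimmune IP was lower than N2 total RNA for rnp-8, at -2.93 ± 0.50 (adjusted p = 0.00229), and the AIN-1 IP was not called against N2 total RNA. Of 10 mRNAs known as targets of the members or as sex-determination genes, glp-1 alone was called in AIN-1 IP minus N2 RNA, at -4.49 ± 0.82 (adjusted p = 0.00291). This mRNA, which encodes the Notch receptor of the germline and is a known target of SPN-4, POS-1 and GLD-1, was lower in the preimmune IP too, at -3.68 ± 0.82 (adjusted p = 0.0103). In the AIN-2::GFP IP the male-fate gene her-1 was the only one of the 10 called, at 3.74 ± 0.99 (adjusted p = 0.0374). For comparison, AIN-1 IP minus N2 RNA called 6.1% of all features higher and 5.65% lower, and the AIN-2::GFP IP over total RNA called 2.79% and 2.72%. The 10 targets and sex-determination genes had medians of -0.71 in AIN-1 and -1.15 in AIN-2::GFP, beside 0.11 and 0.00 over all features. Among 10 tested oocyte and eggshell genes, AIN-1 IP minus N2 RNA had 1 higher and 2 lower at a median of -1.43, and the AIN-2::GFP IP over total RNA had 0 and 1 at -0.98. Among 23 meiotic chromosome genes the counts were 1 and 1 in AIN-1 at a median of -0.89, and 0 and 1 in AIN-2::GFP at -1.44, where 21 of the 23 were below 0. Of 5 embryo polarity genes tested, cdc-42, which encodes a small GTPase, was called higher in AIN-1 IP minus N2 RNA, at 9.63 ± 2.53 (adjusted p = 0.0226). It was also called in the preimmune IP over the same N2 samples, at 9.21 ± 2.53 (adjusted p = 0.0278). Levels of cdc-42 are not given here. Differences this large leave N2 total RNA near the floor, so no fold is read from them. None of the 5 was called in the AIN-2::GFP IP, and the medians of this list were -0.75 in AIN-1 and -0.73 in AIN-2::GFP.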

How the data were processed

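The deposited values are spot intensity, background-subtracted and divided by the sample mean; mean normalization is per the labels' series text, and the rest was read from the values. One round of amplification and Cy3 or Cy5 labelling preceded hybridization, per the labels' protocols. Scanner, image software, background method and genome build were not given in the sources used here.

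Values were quantile normalized over 23232 features, floored at the 10th percentile of positive values (0.0187 sample means, 32.5% of values) and turned to log2. The filter kept 12222 of 17461 gene features, those whose mean exceeded the 30th percentile. limma 3.58.1 in R 4.3.3 fitted group and dye over 20 samples, with 12 residual degrees of freedom, two-sided tests and Benjamini-Hochberg adjustment over all features. A fold change is understated where values lie at the floor. Tables were made with Python 3.11.15.

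Members and lists were chosen with earlier results of these data known. Values in every sample are given for members past the test and for both genes of a paralogue pair. The exceptions are pos-1, egg-3 and glh-3, which were called only in the AIN-1 IP against transgenic total RNA. Genes of the other lists are named by smallest adjusted p, up to 3 a list and comparison. All 46 symbols matched RefSeq gene symbols. No sequences are shown.

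Replicate numbers were checked for pairing by correlating deviations from group means over the tested features. Same-numbered samples correlated at 0.199 to 0.384 between AIN-1 and preimmune IPs, 0.257 to 0.52 between AIN-2::GFP and GFP IPs, and 0.591 to 0.769 between both transgenic total RNA groups, which carry opposite dyes, so these were taken as paired. IP and total RNA of a strain, at -0.0204 to 0.113, were not. The reported fit has no block, so its p-values leave the pairing out, and blocked counts are given for some comparisons only. With dye pairs as a random block, all features called in AIN-2::GFP IP minus GFP IP rose from 363 higher and 155 lower to 774 and 369. In the difference of both enrichments they rose from 1 and 2 to 70 and 52. Only unblocked member counts are given for these comparisons. Alternatives were mean scaling, cyclic loess, no filter on dim features, a floor at the 20th percentile, a replicate block, same-numbered opposite-dye samples as a random block (correlation 0.279, and not stated to share an array), the sample split, other references and leaving out each sample.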

Additional observations from a re-analysis of the deposited data

How the results depend on the processing

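The rise of spn-4 in the AIN-2::GFP IP and the lower egg-4 level in the AIN-1 IP than in the preimmune IP were called in each of the 13 alternatives run for them. Counts of called members moved more, and the counts over all features moved as well. In AIN-1 IP minus N2 RNA, all features called went from 746 higher and 691 lower to 230 and 1822 under mean scaling. They were 788 and 779 under cyclic loess, 477 and 504 with dye pairs, and 157 and 411 with the sample split. For the preimmune IP over N2 total RNA, 476 and 1121 became 277 and 2408 under mean scaling. No move in a member count is read as particular to the members. For AIN-1 IP minus N2 RNA 4 became 8 under mean scaling, 8 under cyclic loess, 2 with dye pairs as a random block, 0 with the sample split, 12 with transgenic total RNA as reference, and 0 to 1 without any 1 sample. For the preimmune IP over N2 total RNA 4 became 1 under mean scaling, 1 with the sample split, and 0 to 10 without any 1 sample. For the AIN-1 IP over the preimmune IP 6 became 12 under cyclic loess, 9 with dye pairs as a random block and 1 to 12 without any 1 sample. For the AIN-2::GFP IP over total RNA 2 became 4 under mean scaling, 6 under cyclic loess, 5 with no filter, 8 with the higher floor, 7 with the sample split, and 1 without any 1 sample. For the GFP IP over total RNA 0 became 0 to 2 without any 1 sample. Direct comparison of both GFP-line IPs called 3 where the difference of enrichments called 0. For N2 against transgenic total RNA 0 became 1 with no filter and 2 with the higher floor. All features called there went from 80 higher and 47 lower to 237 and 144 with no filter and 255 and 120 with the higher floor. AIN-1 associated members went from 0 to 1 with the higher floor, to 11 by the study's rule, and 0 to 1 without any 1 sample, and AIN-2 associated members from 0 to 6 by the study's rule. Another feature of fbf-1 gave 1.01 in place of -3.09. Over all features, the AIN-2::GFP IP against total RNA had 341 higher and 332 lower, and 148 and 428 under mean scaling. It had 362 and 353 under cyclic loess, 382 and 385 with no filter, 552 and 546 with the higher floor, and 313 and 456 with the sample split. AIN-1 IP minus preimmune IP had 1154 and 289, and 927 and 739 under cyclic loess. Without preimmune IP replicate 1, 2 or 3 this comparison had 1197 and 532, 1778 and 752, and 1700 and 482. Without AIN-1 IP replicate 1, 2 or 3 it had 578 and 99, 445 and 73, and 657 and 148. The preimmune IP over N2 total RNA had 594 and 1136 without preimmune IP replicate 1, and 940 and 1706 without replicate 2. The cause of these moves was not tested. Where an N2 sample was left out, the lone N2 sample was assumed to vary like the other groups.

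With the replicate number as a block, 5 members were called in AIN-1 IP minus N2 RNA in place of 4. In the AIN-2::GFP IP over total RNA 4 were called in place of 2. All features called with this block were 766 higher and 686 lower in the first comparison and 381 and 359 in the second. The block ended the calls of puf-5 against the preimmune IP (adjusted p = 0.0599), of egg-6 in the AIN-1 IP (0.0614) and of nos-2 in the preimmune IP (0.0519), all from limma. IP and total RNA samples share only a number. Levels near background limit what can be read for fbf-1, nos-2, pgl-2 and cpb-2.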
